A study of Mus musculus with 8 samples.

Results

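RNA of whole colon from wild-type mice of 2 inbred strains was compared: 2 pools of C3H/HeJBir against 2 pools of C57BL/6J, which are 4 of the 8 pools of the series. The members of the comparison were chosen by strain and genotype as the sample titles give them. No probe set was picked by gene, and of 12422 deposited the 7453 bright enough were tested. Each C57BL/6J pool combined RNA of 5 animals and each C3H/HeJBir pool RNA of 4, with 7 µg from every animal, and each pool was hybridised to its own Affymetrix MG_U74Av2 array. No treatment is named for any pool. The other 4 pools came from mice of the same strains that carry the Il10tm1Cgn allele, a targeted null allele of the gene for interleukin 10, and were used to see whether a difference recurred and for the shared estimate of spread. An age, 4 weeks, is given for 1 pool only, the sample 2 pool of C57BL/6J, and the sex of the animals is not given. Pools are called by strain and sample number below, and values are the deposited intensities, which are linear and in arbitrary units.

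The colon is lined by absorptive and goblet cells that meet a dense microbial community. Goblet cells and, in the small intestine, Paneth cells release mucins, lectins, phospholipases and protease inhibitors that hold bacteria away from the epithelium, and interferons switch on a shared set of antiviral and antigen-presenting genes. Inbred strains differ at many loci that bear on this barrier. C57BL/6 mice are known for inactivating changes in Pla2g2a and, in C57BL/6J, Nnt and for very low Ifi202b, and C3H/HeJ mice, from which C3H/HeJBir derives, for a Tlr4 mutation that makes them respond poorly to bacterial lipopolysaccharide.

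Several markers of the labelled tissue were bright, and some genes of other tissues were read as well. Car1, the carbonic anhydrase of the large bowel surface, read 7125 to 8533 in the 4 wild-type pools, and the epithelial genes Lgals4, Krt8 and Tff3 lay between 7153 and 11456, whereas the guanylin gene Guca2a was below the filter at 4.46 to 14.1. The small-intestinal lactase gene Lct and the apolipoprotein genes Apoa1 and Apoa4 stayed below 32 in every wild-type pool, whereas Fabp2, a fatty acid binding protein of enterocytes, read 1676 to 2528. Of pancreatic enzyme genes, Ctrb1 read 422 and 131 in C57BL/6J and 368 and 370 in C3H/HeJBir, and Prss2 226 and 4.69 against 136 and 215. The 11 tested exocrine pancreas genes, none called, had summed levels of 3151 and 2017 against 2899 and 2989. The part of pancreatic RNA in the results was not tested. Median intensities of the wild-type pools lay between 50.1 and 62.2, and ranks of all probe sets correlated between pools at 0.931 to 0.947. The sample 1 pools of both strains shared 1 hybridisation day and the sample 2 pools another, so each difference was measured once on each day. Xist, transcribed from the inactive X chromosome of females, read 452 and 327 in the sample 1 pools of C57BL/6J and C3H/HeJBir and 2.84 and 7.13 in the sample 2 pools. It therefore went with sample number and not with strain (log2 difference -0.03). The Y-linked Eif2s3y read 39.7 and 256 in the C57BL/6J pools and 318 and 411 in the C3H/HeJBir pools. The part of sex in the results was not tested. The Il10 probe set was below the filter on low values and read 5.43 to 10.9 in the wild-type pools and up to 51.7 in the Il10-null pools, so it does not check the genotype labels.

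Of 7453 probe sets bright enough to test, 30, or 0.403%, differed between the strains at a Benjamini-Hochberg adjusted p under 0.05 (limma, 4 group means over all 8 pools). Higher in C3H/HeJBir were 16 (0.215%) and lower were 14 (0.188%).

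The 30 probe sets stand for 26 named genes and 1 probe set with no symbol, and 1 gene, Pdxdc1, was called in both directions. Apart from Pdxdc1 and the probe set without a symbol, the largest differences belonged to secreted products of the mucosal surface, a sialyltransferase, an interferon-induced GTPase and noncoding RNAs. Higher values in C3H/HeJBir ranged from 3.20-fold to 94.6-fold and lower values from 4.11-fold to 18.1-fold. All fold changes are on the scale of log2 of intensity plus 11.07, which understates the change of dim probe sets. Without adjustment, 423 probe sets (5.68%) had a p under 0.05, of which 195 (2.62%) were higher and 228 (3.06%) lower. For 2310 of the tested probe sets (31%) the pools of one strain did not overlap those of the other, which is the background for every statement on overlap here. The labels call the pools of a strain independent and say nothing more, so the p-values measure the spread between these pools.

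The calls rested on having both pools of each strain. Without the sample 1 or the sample 2 pool of C57BL/6J, 2 probe sets were called in each case, and without the sample 1 or sample 2 pool of C3H/HeJBir the counts were 8 and 9. A probe set with no symbol, 95936_at, and the Pdxdc1 probe set 97713_at were the ones called whichever wild-type pool was left out. No called probe set changed direction when any single pool was left out. With the hybridisation day as a block 20 probe sets were called, and 19 of the 30 calls were kept. The calls lost were 1 of 2 for Slpi and those for Cap1, Cd14, Snhg6, the probe set annotated to Mir686, Pla2g2a, Prdx2, Ctsc, Hebp1, Meg3 and Gbp2b. The block cannot change the size of a difference, since both strains were hybridised on each day, and bears only on the p-values.

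**Figure D1:**
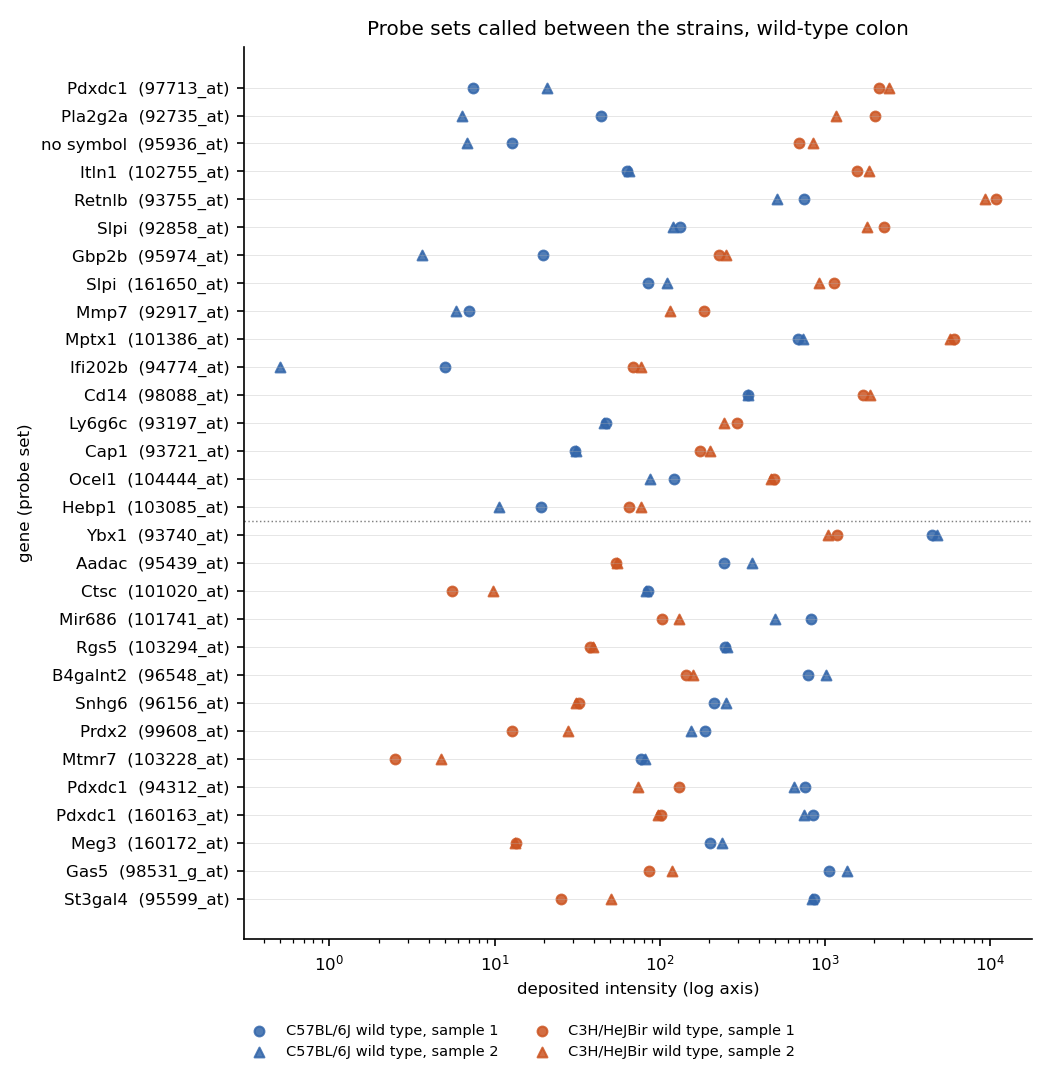
Deposited intensity (horizontal log axis, arbitrary units) of the 30 called probe sets (vertical axis, named by gene and probe set) in the 4 wild-type pools, with blue for C57BL/6J, orange for C3H/HeJBir, circles for sample 1 and triangles for sample 2. Above the dotted line lie the 16 probe sets higher in C3H/HeJBir and below it the 14 lower ones, and on no line do the colours overlap.

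Genes for secreted proteins that act on microbes were prominent among those higher in C3H/HeJBir. Of 21 tested genes in a list of antimicrobial and acute-phase products, 5 were called higher in C3H/HeJBir and none lower, beside 0.215% of all tested probe sets called higher. The list's median log2 difference was 0.23, beside -0.02 over all tested probe sets, with 15 members positive and 6 negative. The pools did not overlap for 11 members in the direction of C3H/HeJBir and for 1 in the other, beside 14% and 17% of all tested probe sets. The gene lists, here and below, were chosen with earlier results of these data known. Such counts therefore describe the members and are no test of a list. In RNA of whole tissue, more cells of a type and more RNA per cell cannot be told apart, here or in any result that follows.

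Pla2g2a, the secreted group IIA phospholipase that attacks bacterial membranes, read 44.3 and 6.38 in C57BL/6J and 2013 and 1172 in C3H/HeJBir. The C57BL/6J pools were near the floor of the array and the C3H/HeJBir pools well above it, with no overlap. The log2 difference was 5.64 ± 0.74 (SE, 2 pools a strain), 49.8-fold, with adjusted p = 0.0160. With hybridisation day as a block that p was 0.0665, and over all settings tried it ranged from 0.00410 to 0.196.

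Itln1 encodes intelectin-1, a lectin that binds microbial sugars. It read 63.5 and 64.9 in C57BL/6J and 1570 and 1844 in C3H/HeJBir, a log2 difference of 4.51 ± 0.53 (22.8-fold, adjusted p = 0.00956). Replicate pools nearly coincided and the strains were far apart. The intelectin genes are known to vary in number between mouse strains, and whether the probes also read a close relative was not tested.

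Retnlb, a goblet cell product that acts on bacteria, was the brightest of the called genes that rose. Its values were 745 and 514 in C57BL/6J and 10942 and 9363 in C3H/HeJBir, a log2 difference of 4.01 ± 0.42 (16.1-fold, adjusted p = 0.00640). The higher C57BL/6J pool lay far below the lower C3H/HeJBir pool.

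Mptx1, mucosal pentraxin, a secreted member of a family that binds bacterial surfaces, read 690 and 738 in C57BL/6J and 6034 and 5737 in C3H/HeJBir. The pools of each strain lay close together and did not overlap. The log2 difference was 3.02 ± 0.34 (8.13-fold, adjusted p = 0.00949). The 250 bases before its start in the RefSeq table (chr1:174330268-174330517, plus strand, GRCm38.p6, a C57BL/6J genome) are shown, with capitals for TATAAA, the TATA box, read on the opposite strand, because Mptx1 is a bright called gene that lies next to Ifi202b, printed further on.
Mptx1: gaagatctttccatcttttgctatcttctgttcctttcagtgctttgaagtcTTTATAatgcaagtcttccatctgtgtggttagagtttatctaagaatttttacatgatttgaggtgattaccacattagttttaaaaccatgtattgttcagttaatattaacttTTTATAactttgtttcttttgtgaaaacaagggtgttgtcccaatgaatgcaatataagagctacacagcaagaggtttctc
That motif, searched on both strands, occurs in 13% of the 27018 promoter stretches of this length in the table, and is a match of letters only.

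Slpi, an inhibitor of leukocyte elastase with antimicrobial activity of its own, was read by 4 tested probe sets. On 92858_at it read 133 and 120 in C57BL/6J and 2277 and 1811 in C3H/HeJBir, a log2 difference of 3.89 ± 0.38 (14.8-fold, adjusted p = 0.00517). On 161650_at the values were 85.5 and 110 against 1133 and 921, a log2 difference of 3.25 ± 0.34 (adjusted p = 0.00640). The other 2 probe sets, 162329_r_at and 162333_r_at, differed by -0.08 and -0.01, so the gene's probe sets did not give 1 answer.

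Of the list's other members, Reg3g, a lectin that binds Gram-positive bacteria, read 646 and 1016 in C57BL/6J and 2646 and 2666 in C3H/HeJBir. The pools did not overlap, but the difference did not pass the test (log2 difference 1.70 ± 0.37, adjusted p = 0.183). Its bright relative Reg3b read 6422 to 8043 across the 4 pools and differed by 0.22. The neutrophil-associated genes S100a8 and Camp stayed below 53 in every wild-type pool. Other neutrophil markers were brighter. Ly6g read 462 and 771 in C57BL/6J and 643 and 1178 in C3H/HeJBir (log2 difference 0.54), and Csf3r 140 and 320 against 196 and 160 (-0.25). The 5 tested markers, none called, had a median log2 difference of 0.04. Their summed levels were 736 and 1175 in C57BL/6J and 970 and 1440 in C3H/HeJBir.

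Goblet cell markers as a group did not follow Retnlb. Of 14 tested genes, Retnlb alone was called, beside 0.215% of all tested probe sets called higher, and the median log2 difference was -0.04. Tff3 read 7933 to 8939, Zg16 7527 to 8949 and Clca1 7200 to 9075 in the 4 pools. Tff2, a trefoil peptide of gastric and injured mucosa, read 16.4 and 6.29 in C57BL/6J and 272 and 143 in C3H/HeJBir. Its log2 difference of 3.26 ± 0.68 did not pass the test (adjusted p = 0.157), although the pools did not overlap.

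Mmp7, matrilysin, which activates Paneth cell defensins, read 7.03 and 5.84 in C57BL/6J and 184 and 115 in C3H/HeJBir. The C57BL/6J pools were close to the lowest intensities and the C3H/HeJBir pools above the array median. The log2 difference was 3.17 ± 0.28 (8.98-fold, adjusted p = 0.00404). The 250 bases before its start (chr9:7691840-7692089, plus strand, same source) are shown, because Mmp7 passed the test, with capitals for TGANTCA, the AP-1 motif, and for TATAAA.
Mmp7: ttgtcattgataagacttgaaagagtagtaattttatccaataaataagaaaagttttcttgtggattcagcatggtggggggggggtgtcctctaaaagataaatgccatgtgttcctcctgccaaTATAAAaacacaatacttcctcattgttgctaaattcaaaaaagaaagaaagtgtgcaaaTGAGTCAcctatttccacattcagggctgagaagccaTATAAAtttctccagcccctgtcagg
TGANTCA, searched on both strands, occurs in 6.85% of all such stretches and, among the 11 matched genes called higher in C3H/HeJBir, in this 1 gene. It lies 63 to 57 bases before the start.

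Ctsc, cathepsin C, which activates granule serine proteases, fell on 101020_at from 84.8 and 82.5 in C57BL/6J to 5.56 and 9.77 in C3H/HeJBir (log2 difference -2.35 ± 0.33, adjusted p = 0.0245). With sample number as a block its adjusted p was 0.0588, and over all settings it ranged from 0.00730 to 0.367. On 101019_at the gene read 209 and 152 against 185 and 182, a log2 difference of 0.04, so the fall was seen by 1 of its 2 tested probe sets. Another probe set, 161251_f_at, was below the filter and not tested, and also read lower in C3H/HeJBir (49.6 and 22.6 against 12.05 and 8.34). Of 40 tested proteases and inhibitors, read by their brightest probe set, Slpi and Mmp7 were called, both higher, beside 0.215% of all tested probe sets called higher. The list's median log2 difference was 0.03. Plat, tissue plasminogen activator, had the next largest size (101 and 96.4 against 26.6 and 49.2, log2 difference -1.21, adjusted p = 0.363).

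Cd14, the coreceptor that hands lipopolysaccharide to Tlr4, was higher in C3H/HeJBir. It read 344 and 341 in C57BL/6J and 1696 and 1881 in C3H/HeJBir, with replicate pools close together and the strains well apart. The log2 difference was 2.34 ± 0.28 (5.08-fold, adjusted p = 0.00956), and with the hybridisation day as a block the adjusted p was 0.0653, within a range of 0.00120 to 0.117 over all settings. No tested probe set carried the symbol Tlr4. The 16 tested genes of lipopolysaccharide sensing had a median log2 difference of 0.02. Cd14 was the 1 call among them, beside 0.215% of all tested probe sets called higher. Nfkb2, a subunit of NF-kB, read 131 and 93.1 against 48.2 and 48.4 without passing the test (log2 difference -1.03, adjusted p = 0.454).

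Cd14 also marks macrophages. Of 13 tested macrophage and dendritic cell genes 12 were not called, where 0.215% of all tested probe sets were called higher. The median log2 difference including Cd14 was -0.03, with 5 positive and 8 negative. The pools did not overlap for 4 in the direction of C3H/HeJBir and for 2 in the other, beside 14% and 17% of all tested probe sets. Lyz2, a lysozyme of myeloid cells, read 210 and 211 against 339 and 401 (log2 difference 0.78, adjusted p = 1.00), and the other uncalled members ranged from -0.83 for Aif1 to 0.45 for C1qa. The summed level of the tested macrophage genes was 4537 and 5535 in C57BL/6J and 6150 and 6963 in C3H/HeJBir. Cd14 itself, at 344 and 341 against 1696 and 1881, is part of these sums. They therefore give no measure of the cells apart from Cd14, and the part of these cells in the result was not tested.

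Genes induced by interferon were mostly higher in C3H/HeJBir, although few passed the test one by one. Of 19 tested genes induced by type I interferon, 18 had a positive log2 difference, against 3515 of all 7453 tested probe sets (47.2%), and the median was 0.80, or 1.74-fold. The pools did not overlap for 13 of them in the direction of C3H/HeJBir, beside 14% of all tested probe sets, and 10 had an unadjusted p under 0.05 in that direction, beside 2.62%. A single gene was called, beside 0.215% of all tested probe sets called higher. On the day of the sample 1 pools the list's median was 0.94 and on that of the sample 2 pools 0.60, and over all settings it ranged from 0.52 to 1.00.

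The called gene, Ifi202b, belongs to a family of interferon-inducible proteins with a nucleic acid binding domain. It read 5.04 and 0.50 in C57BL/6J and 69.1 and 77.3 in C3H/HeJBir, with the C57BL/6J pools at the floor of the array. The log2 difference was 2.62 ± 0.31 (6.16-fold, adjusted p = 0.00965), and C57BL/6 mice are known for very low levels of this gene. Its neighbour in the family, Ifi204, read 42.5 and 25.7 against 122 and 77.8 and was not called (log2 difference 1.29, adjusted p = 1.00).

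Isg15, a ubiquitin-like protein that is attached to other proteins after interferon, read 119 and 159 in C57BL/6J and 773 and 624 in C3H/HeJBir. The log2 difference of 2.25 ± 0.58 did not pass the test (adjusted p = 0.325). Ifit1, which binds foreign RNA ends, read 105 and 203 against 488 and 600 (log2 difference 1.81 ± 0.43, adjusted p = 0.252). For both genes the lower C3H/HeJBir pool lay well above the higher C57BL/6J pool. Ifi27l2a came nearest to the threshold, with 170 and 119 against 471 and 412 (log2 difference 1.56 ± 0.26, adjusted p = 0.0634). Isg20, a ribonuclease, was the exception in sign, with 140 and 116 against 100 and 95.0 (log2 difference -0.35).

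The stretches before the starts of Ifi202b (chr1:173982845-173983094, minus strand), Isg15 (chr4:156200819-156201068, minus strand) and Ifit1 (chr19:34640639-34640888, plus strand) are printed from the same RefSeq table, since these genes carried the largest differences of the list. Capitals mark the core of the interferon-stimulated response element (GAAA, any 2 bases, GAAA) in Isg15 and Ifit1, and TTCNNNGAA, the STAT motif, in Ifi202b.
Ifi202b: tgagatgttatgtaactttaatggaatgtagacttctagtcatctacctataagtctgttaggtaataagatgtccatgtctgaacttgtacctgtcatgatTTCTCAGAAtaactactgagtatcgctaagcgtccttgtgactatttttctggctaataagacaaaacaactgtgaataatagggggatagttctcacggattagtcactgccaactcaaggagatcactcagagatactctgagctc
Isg15: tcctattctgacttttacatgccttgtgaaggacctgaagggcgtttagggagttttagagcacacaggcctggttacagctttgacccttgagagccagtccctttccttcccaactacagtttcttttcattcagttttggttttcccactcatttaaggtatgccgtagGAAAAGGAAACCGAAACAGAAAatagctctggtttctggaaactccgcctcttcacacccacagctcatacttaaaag
Ifit1: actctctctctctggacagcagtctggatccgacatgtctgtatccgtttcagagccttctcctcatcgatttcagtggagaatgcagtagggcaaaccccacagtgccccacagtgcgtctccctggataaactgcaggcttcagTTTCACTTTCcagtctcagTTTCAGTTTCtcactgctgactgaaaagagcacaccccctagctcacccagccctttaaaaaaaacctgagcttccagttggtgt
Isg15 has 3 overlapping matches to that core 78 to 57 bases before its start, and Ifit1 has 2 on the opposite strand. It was searched on both strands and occurs in 3.05% of all promoter stretches, in 4 of 13 matched genes of the type I list (30.8%) and in 8 of 13 matched genes of the interferon-gamma list (61.5%). TTCNNNGAA occurs in 7.14% of all stretches and in 4 genes of each list. These lists were built from genes known to respond to interferon, and the sequence is that of C57BL/6J alone.

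**Figure D2:**
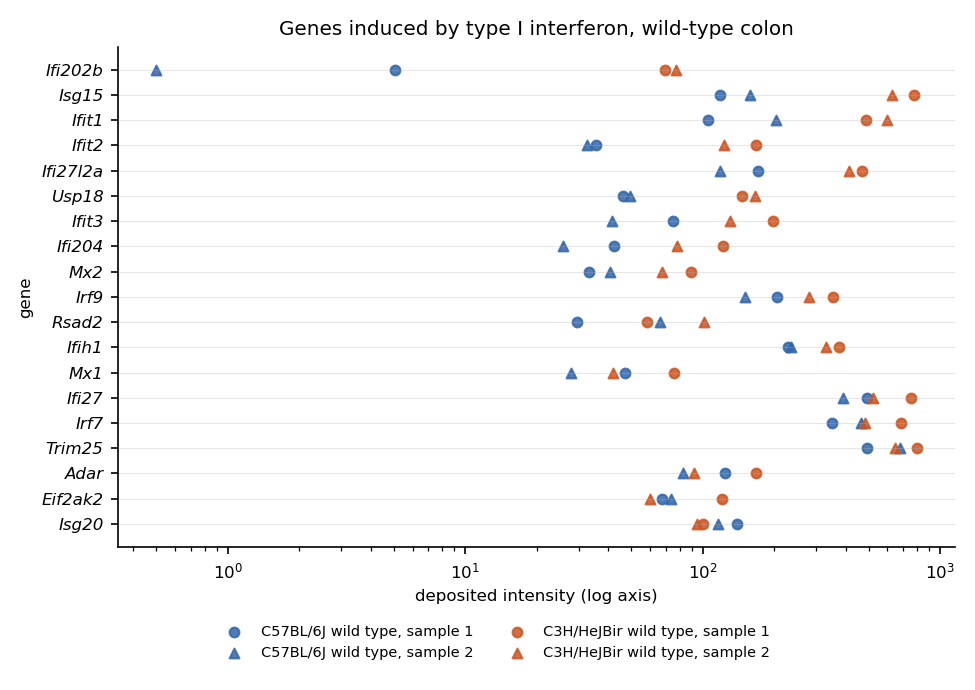
Deposited intensity (horizontal log axis, arbitrary units) of the 19 tested type I interferon-induced genes (vertical axis) in the 4 wild-type pools, blue for C57BL/6J, orange for C3H/HeJBir, circles for sample 1 and triangles for sample 2. In 13 genes both orange marks lie to the right of both blue marks, and Isg20 at the bottom shows the reverse order.

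Of 17 tested genes induced by interferon-gamma, 16 had a positive log2 difference, and the median was 0.79 (1.73-fold). The pools did not overlap for 13 in the direction of C3H/HeJBir, beside 14% of all tested probe sets. An unadjusted p under 0.05 in that direction was seen for 3, beside 2.62%. The median was 0.73 between the sample 1 pools and 0.54 between the sample 2 pools, and ranged from 0.41 to 0.98 over all settings. Gbp2b, a guanylate-binding GTPase that acts against intracellular microbes, rose from 19.6 and 3.62 in C57BL/6J to 229 and 251 in C3H/HeJBir (log2 difference 3.56 ± 0.56, 11.8-fold, adjusted p = 0.0468). Its adjusted p was 0.0891 with sample number as a block and 0.203 with hybridisation day as a block, within a range of 0.0103 to 0.327 over all settings. Gbp3 read 50.6 and 26.3 against 175 and 169 (log2 difference 1.93, adjusted p = 0.340), whereas Gbp2 differed by 0.54. Wars, a tRNA ligase, had the 1 negative difference (-0.39).

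The 9 tested MHC class II genes had a median log2 difference of 0.63 with 8 positive, but none was called and none reached an unadjusted p under 0.05. Cd74, the invariant chain, read 529 and 399 in C57BL/6J and 583 and 1079 in C3H/HeJBir, with the higher value in the sample 2 pool. The 15 tested class I and processing genes had a median of 0.30. Within them the immunoproteasome subunit Psmb8 read 222 and 267 against 537 and 688 (log2 difference 1.28, adjusted p = 0.667) and the probe set for H2-Q4 read 1393 and 1627 against 448 and 490 (log2 difference -1.66, adjusted p = 0.0851). H2 genes resemble each other and the strains carry different H2 haplotypes, so a probe set named for 1 of them may also read its relatives.

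Immunoglobulin genes were higher in C3H/HeJBir without passing the test. Igha, the heavy chain of mucosal IgA, read 894 and 411 in C57BL/6J and 2578 and 2246 in C3H/HeJBir (log2 difference 1.97 ± 0.59, adjusted p = 0.475). Ighm read 971 and 442 against 2079 and 2101 (log2 difference 1.65, adjusted p = 0.682), and Jchain, which joins secreted IgA and IgM, 277 and 229 against 565 and 662 (log2 difference 1.24, adjusted p = 0.437). Their pools did not overlap. The sample 1 pool of C57BL/6J was the higher of its pair for all 3 genes. Cd79a, a part of the B cell receptor, read 78.3 and 14.95 against 97.2 and 113 (log2 difference 1.27, adjusted p = 0.869). Of the 12 tested genes 4 had an unadjusted p under 0.05, all higher in C3H/HeJBir, beside 2.62% of all tested probe sets in that direction. Others differed less, with Ms4a1 at 0.15, Pax5 at 0.19 and Pigr, the transporter of IgA across the epithelium, at -0.01, and the list had a median of 0.48. Other tested probe sets of Ighm differed by 0.53 (93584_at) to 3.13 (101871_f_at), and 161486_f_at of Igha by 0.90, and none was called. Immunoglobulin probe sets share sequence and their values are uncertain as to gene.

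Among enzymes that build surface sugars, St3gal4 fell furthest of all called genes. This sialyltransferase caps galactose with sialic acid. It read 858 and 836 in C57BL/6J and 25.4 and 50.8 in C3H/HeJBir, so that the strains were far apart and the C57BL/6J pools nearly equal. The log2 difference was -4.17 ± 0.43 (18.1-fold lower, adjusted p = 0.00640).

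B4galnt2, which adds N-acetylgalactosamine to sialylated chains of intestinal glycans, fell on 96548_at from 796 and 1026 to 145 and 159 (log2 difference -2.49 ± 0.30, 5.61-fold, adjusted p = 0.00977). Its brighter probe set 103776_at read 1357 and 1557 against 755 and 789, a difference in the same direction that did not pass the test (-0.90 ± 0.25, adjusted p = 0.390). Of 29 tested glycosylation genes, read by the brightest probe set, 18 had a negative difference and the median was -0.20. St6galnac4, another sialyltransferase, went the other way without passing the test, with 14.0 and 16.8 against 43.5 and 65.7 (log2 difference 1.29, adjusted p = 0.206).

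Noncoding RNAs were among the largest differences in the direction of C57BL/6J. Gas5, a host gene of small nucleolar RNAs, read 1065 and 1362 on 98531_g_at in C57BL/6J and 86.4 and 120 in C3H/HeJBir (log2 difference -3.43 ± 0.33, 10.8-fold, adjusted p = 0.00517). Its second tested probe set, 98530_at, read 57.1 and 45.2 against 37.1 and 14.6 and was not called (-0.82, adjusted p = 0.866). Snhg6, also a host of small nucleolar RNA, read 213 and 252 against 32.7 and 31.3 (log2 difference -2.50 ± 0.30, adjusted p = 0.00977).

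Meg3, an imprinted long noncoding RNA expressed from the maternal chromosome, read 201 and 237 on 160172_at in C57BL/6J and 13.5 and 13.4 in C3H/HeJBir (log2 difference -3.22 ± 0.49, adjusted p = 0.0382). Its adjusted p was 0.0763 with hybridisation day as a block and ranged from 0.00182 to 0.322 over all settings. The probe set 160173_at gave the same order, with means of 237 ± 45.7 against 33.3 ± 6.68 (SD, n = 2), and fell just outside the threshold (-2.48, adjusted p = 0.0645). The probe set annotated to Mir686 read 830 and 499 against 104 and 131 (-2.36 ± 0.31, adjusted p = 0.0157), and such a probe set reads a longer transcript rather than a mature microRNA.

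Other called genes that fell serve varied functions. Ybx1, an abundant RNA- and DNA-binding protein, was the brightest of them, with 4449 and 4811 in C57BL/6J and 1183 and 1054 in C3H/HeJBir (log2 difference -2.04 ± 0.22, 4.11-fold, adjusted p = 0.00753). Mtmr7, a lipid phosphatase of the myotubularin family, read 77.5 and 82.0 against 2.48 and 4.74 (-2.63 ± 0.22, adjusted p = 0.00404). In both the pools of a strain lay close together. Aadac, an esterase, read 246 and 363 against 54.6 and 55.0 (-2.24 ± 0.30, adjusted p = 0.0165). Rgs5, a regulator of G protein signalling found in pericytes, read 250 and 258 against 38.1 and 39.7 on 103294_at (-2.41, adjusted p = 0.00956) and differed by -0.56 on its other tested probe set. Prdx2, a peroxidase of red cells and other tissues, fell on the dimmer 99608_at from 188 and 156 to 12.8 and 27.9 (-2.58, adjusted p = 0.0160) and differed by -0.13 on its brighter tested probe set, which read 1105 to 1277.

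The remaining genes that rose were moderate in level. Ly6g6c, a small membrane-anchored protein encoded in the MHC region, read 47.2 and 46.1 in C57BL/6J and 293 and 247 in C3H/HeJBir (log2 difference 2.28 ± 0.22, adjusted p = 0.00517). Cap1, a regulator of actin filaments, read 30.8 and 31.2 against 175 and 203 (2.25 ± 0.26, adjusted p = 0.00956). In both, the C57BL/6J pools were almost equal. Ocel1 read 123 and 87.1 against 494 and 473 (2.11 ± 0.24, adjusted p = 0.00956). Hebp1, a haem-binding protein, had the smallest called difference, 19.1 and 10.7 against 65.3 and 77.0 (1.68 ± 0.25, adjusted p = 0.0344, range over all settings 0.0231 to 0.312). The probe set 95936_at, which has no symbol in the annotation, read 12.8 and 6.84 against 704 and 852 (5.25 ± 0.26, adjusted p = 8.91e-05).

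Values on either side of the threshold lay close together. Gbp2b, with an adjusted p of 0.0468, was the last inside. The first outside were Thumpd1, where C57BL/6J read 138 and 136 and C3H/HeJBir 46.6 and 27.1 (log2 difference -1.66, adjusted p = 0.0577), and 0610005C13Rik, with 147 and 160 against 35.5 and 6.67 (-2.52, adjusted p = 0.0617). Of 47 tested probe sets with a log2 difference of at least 2 in size, 29 were called.

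Several called genes had probe sets that disagreed. Among 902 genes with several tested probe sets, the log2 differences of a gene spanned a median range of 0.27, and 45 genes (4.99%) spanned more than 1. Of the 26 called genes 8 had several tested probe sets, and 7 of these spanned more than 1. A gene enters the called set by its most extreme probe set, so this share is a description of the members. The widest span was that of Pdxdc1, a decarboxylase-like enzyme, whose 3 probe sets were all called. On 97713_at it read 7.38 and 20.9 in C57BL/6J and 2141 and 2443 in C3H/HeJBir (log2 difference 6.56 ± 0.32, 94.6-fold, adjusted p = 8.91e-05). On 160163_at it read 845 and 753 against 102 and 98.3 (-2.86 ± 0.25, adjusted p = 0.00404), and on 94312_at 756 and 654 against 130 and 74.3 (-2.70 ± 0.31, adjusted p = 0.00956). The average of the 3 gave 0.33 (adjusted p = 0.999), so no direction can be given for the gene. Whether base differences between the strains under the probes play a part in such cases was not tested.

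**Figure D3:**
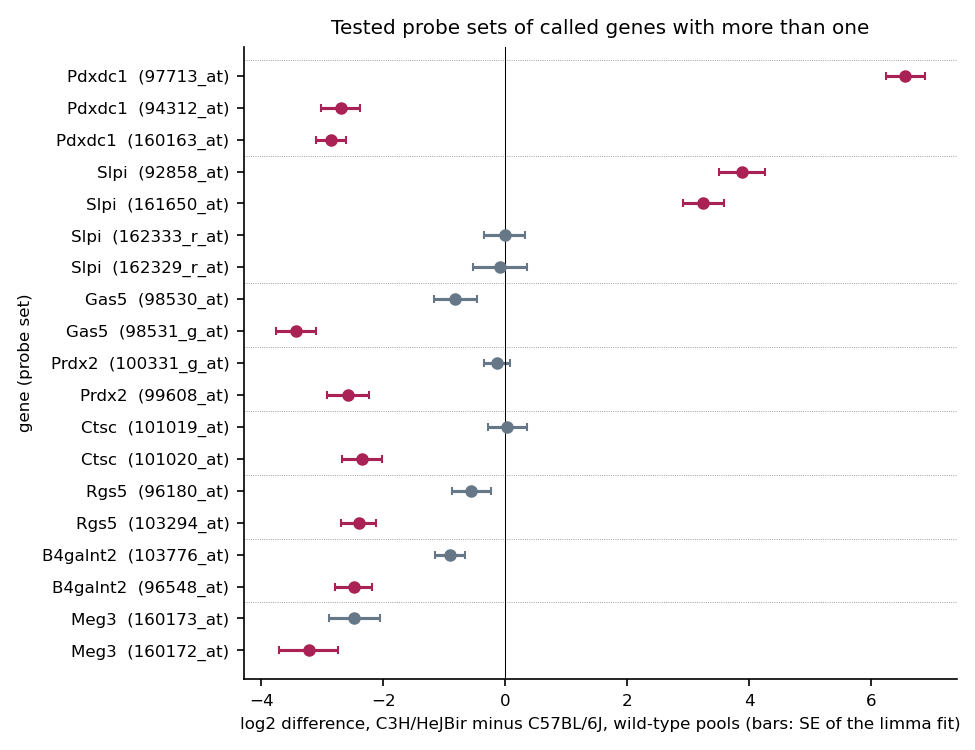
Log2 difference between the wild-type strains (horizontal axis, C3H/HeJBir minus C57BL/6J, bars are the SE of the limma fit) for each tested probe set (vertical axis) of the 8 called genes that have several, with called probe sets in red and others in grey. The Pdxdc1 probe sets lie at 6.56, -2.70 and -2.86, and for Slpi, Ctsc and Prdx2 called and uncalled probe sets stand far apart.

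Genes known to differ between the genomes of such strains were given as a list of 7, of which 5 were tested and Pla2g2a, Gbp2b and Ifi202b were called, beside 0.403% of all tested probe sets. The list was chosen because such strains are known to differ there, and its median log2 difference was 2.62. Glo1, an enzyme that detoxifies methylglyoxal and is duplicated in some strains, read 381 and 488 in C57BL/6J and 991 and 1188 in C3H/HeJBir on 93269_at (log2 difference 1.31 ± 0.26, adjusted p = 0.134). On 93268_at it read 201 and 209 against 419 and 377 (0.92 ± 0.21, adjusted p = 0.234). Both probe sets separated the strains without passing the test. Nnt, a mitochondrial transhydrogenase that C57BL/6J is known to lack in functional form, read 42.3 and 39.7 against 143 and 67.8 (1.08 ± 0.36, adjusted p = 0.606). In the Il10-null pools Nnt read 159 and 94.8 in C57BL/6J and 82.8 and 89.2 in C3H/HeJBir, so the order of the strains did not recur there. H2-Ea, silent in H2b mice such as C57BL/6J, was below the filter with 3.46 to 12.1 in the wild-type pools and did not separate the strains.

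Of 35 lists with at least 5 tested genes, 4 had a median log2 difference above 0.5 and none below -0.5. The 4 were the known genome differences (2.62), both interferon lists and MHC class II. Smooth muscle genes had a median of -0.20 with all 11 negative, fibroblast and matrix genes -0.17 with 15 of 18 negative, and adipocyte genes -0.25 with all 9 negative, beside 3938 of 7453 negative over all tested probe sets. No member of these 3 lists was called or reached an unadjusted p under 0.05. Their summed levels overlapped between strains for adipocyte genes (C57BL/6J 1900 and 1485, C3H/HeJBir 1915 and 1020) but not for smooth muscle genes (18953 and 18282 against 17792 and 15309) or matrix genes (8976 and 9505 against 8372 and 7987). Absorptive colonocyte genes had a median of -0.13, xenobiotic metabolism 0.02, ion and solute transport -0.00, Wnt, Hedgehog, Bmp and Notch 0.03, the cell cycle -0.02 and the respiratory chain -0.08. In the enteroendocrine list, Pam, which amidates peptide hormones, read 459 and 334 in C57BL/6J and 29.2 and 20.6 in C3H/HeJBir without passing the test (log2 difference -3.49 ± 0.66, adjusted p = 0.102), while Chgb, a granule protein of the same cells, differed by -0.08.

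**Figure D4:**
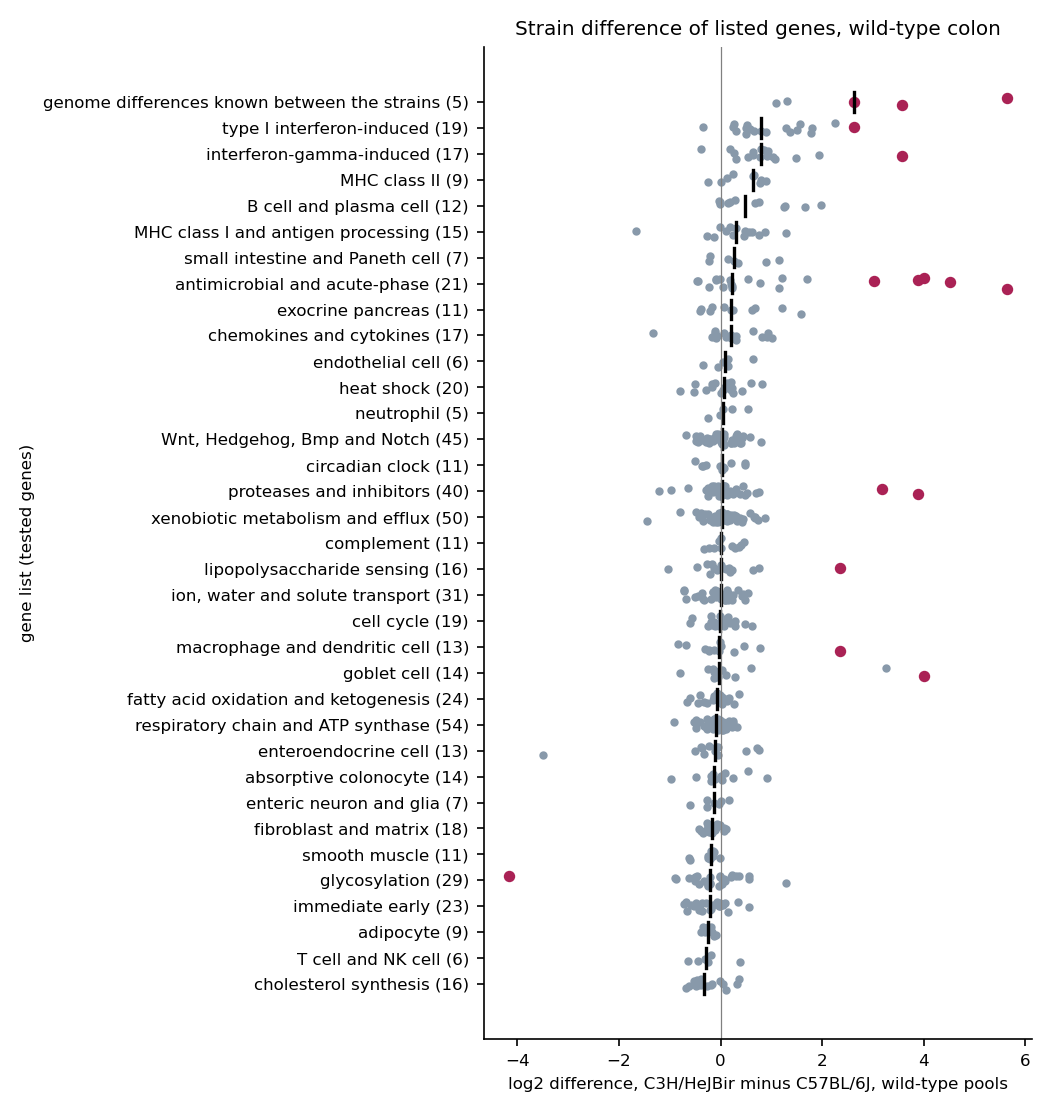
Log2 difference between the wild-type strains (horizontal axis, C3H/HeJBir minus C57BL/6J) of the tested genes of each list with at least 5 (vertical axis, number tested in brackets), 1 dot a gene, red for called genes and a black bar for the list's median. The interferon lists and the known genome differences lie mostly to the right of 0, and called genes otherwise stand apart from the bulk of their lists.

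Chromosome 1 held 6 of the called genes (1.69% of its 354 tested probe sets, beside 0.403% over all): Snhg6, Gas5, Rgs5, Itln1, Ifi202b and Mptx1. From Gas5 on, these followed each other with 14, 17, 11 and 0 tested genes between them, in that order. Ifi202b and Mptx1 were next to each other among tested genes, the 1 such pair of called genes, and both were higher in C3H/HeJBir. Chromosome 16 held 4 called probe sets of 218, of which 3 belong to Pdxdc1 and 1 to Retnlb. On chromosome 4, 8 tested genes lay between Ybx1, which was lower, and Cap1, which was higher.

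The same contrast was taken between the Il10-null pools, whose values the wild-type differences do not use, although all 8 pools share the filter and the estimate of spread behind the p-values. All 30 probe sets differed in the same direction there, beside 58.6% of all tested probe sets and 83.7% of the 423 with an unadjusted p under 0.05 in wild type. For 29 of the 30 the null pools did not overlap either, in the direction of wild type. The same held for 1405 of all 7453 tested probe sets and for 252 of those 423. In either direction, 27.2% of all tested probe sets had non-overlapping null pools. In the null pools 22 probe sets (0.295%) were called, of which 20 were also called in wild type, which is 66.7% of the wild-type calls and 90.9% of the null calls. Fitted without the wild-type pools, the null comparison gave 12 calls. The median ratio of the null to the wild-type log2 difference over the 30 was 0.944. Across the 7453 probe sets, which share probes and arrays and are not replicates, the log2 differences of the genotypes correlated at 0.55 (Pearson) and 0.31 (Spearman).

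No probe set's strain difference differed between genotypes at an adjusted p under 0.05 (limma interaction, smallest adjusted p = 0.480), and 112 (1.5%) had an unadjusted p under 0.05. Of the 30 called in wild type, 5 were among these: Gas5, Meg3, Ly6g6c, Retnlb and the probe set 95936_at. The 30 were selected by wild-type differences, which the interaction uses again. Their unadjusted interaction p-values are therefore no fair test, and the count is not to be set against the 1.5%. Gas5 had the largest change among the called genes. In the null pools it read 998 and 1351 in C57BL/6J and 855 and 1440 in C3H/HeJBir, so the low level of the C3H/HeJBir wild-type pools was not seen (null log2 difference -0.07, interaction 3.36, unadjusted p = 7.2e-05, adjusted p = 0.480). Gas5 and Il10 lie on chromosome 1, as do the called genes Snhg6, Rgs5, Itln1, Ifi202b and Mptx1. The null log2 differences of these called genes were -2.47, -2.17, 3.20, 2.49 and 2.65, in that order. Qsox1, also on chromosome 1 but not called, differed by -1.79 in wild type and by -0.07 in the null pools, as Gas5 did in kind. Whether position plays a part in the Gas5 result was not tested. Retnlb read 1572 and 4033 in the C57BL/6J null pools and 10963 and 10101 in the C3H/HeJBir null pools, a log2 difference of 2.06 (interaction -1.95, unadjusted p = 0.0104, adjusted p = 1.00). St3gal4 kept its separation, with 618 and 1020 against 12.7 and 41.1 (-4.51), as did Pla2g2a with 21.1 and 44.9 against 5446 and 1283 (5.97) and Cd14 with 485 and 556 against 3830 and 2338 (2.50). The type I interferon list, at a median of 0.80 in wild type, had 0.23 in the null pools with 13 of 19 positive (0.63 between the sample 1 and -0.12 between the sample 2 null pools), and the interferon-gamma list had 0.43, with 1.62 between the sample 1 null pools and -0.71 between the sample 2 null pools. The differences between wild-type and null medians were not tested.

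**Figure D5:**
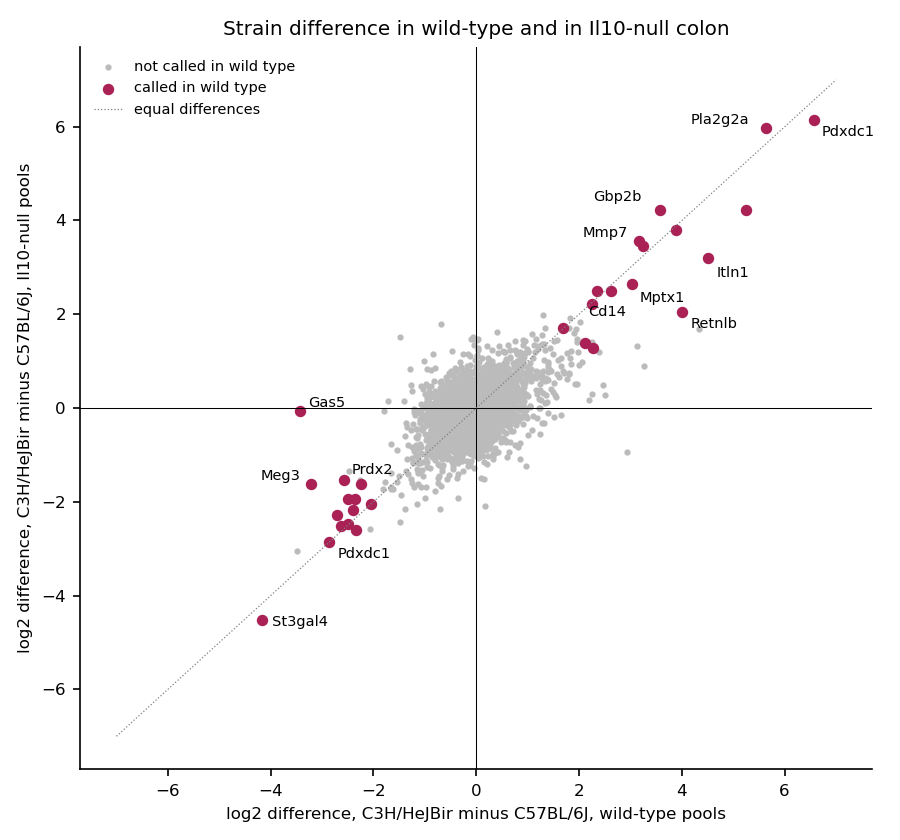
Log2 difference between the strains in the Il10-null pools (vertical axis) against that in the wild-type pools (horizontal axis), C3H/HeJBir minus C57BL/6J, 1 dot for each of 7453 tested probe sets, red for the 30 called in wild type and a dotted line where both are equal. Gas5, at -3.43 and -0.07, lies farthest from the dotted line among the red dots, followed by Retnlb (4.01 and 2.06), Meg3 (-3.22 and -1.62) and Itln1 (4.51 and 3.20).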

How the data were processed

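Total RNA of whole colon was pooled from 4 or 5 mice and hybridised to Affymetrix MG_U74Av2 arrays, per the labels. The authors deposited 1 intensity per probe set on a linear scale (12422 probe sets, 0.03 to 12860). The means of the arrays after trimming 2% differed by a ratio of 1.01, so the deposited scaling was kept. How probe values were summarised, the scaling target and any background correction are not given in the labels or file headers, and without detection calls no bounds were set on dim values. Symbols come from the platform annotation: 10833 probe sets have 1, 396 several and 1193 none.

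Groups were taken from the sample titles. Log2 of the intensity plus 11.07 (20th percentile of all values) was fitted for probe sets with a mean of at least 37.0 (40th percentile) by limma 3.58.1 in R 4.3.3 (lmFit, eBayes, 4 group means, no block, 4 residual and 4.23 prior degrees of freedom), two-sided, with Benjamini-Hochberg adjustment over 7453 probe sets. This fit was tested on simulated data. Differences are C3H/HeJBir minus C57BL/6J. Pools of equal sample number deviated together (correlations 0.198 to 0.332 over the group pairs), so the number, which comes from the titles, pairs the pools, and a fit with it as a block was an alternative. The day of hybridisation was read from the experiment files.

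Named genes were those called with non-overlapping pools, up to 15 in each direction, and, for each list, called members or the 2 largest differences. The comparison and the gene lists were chosen with earlier results of these data known. A gene with several probe sets was read in lists by the brightest. The 250 bases before gene starts were taken from RefSeq (GRCm38.p6), and 11 of 14 genes called higher and 10 of 13 called lower were matched. The number of arrays limits the precision. Alternatives were pseudocount, filter, scaling, moderation, samples in the fit, blocks, averaged probe sets, no X or Y probe sets and leaving out each pool.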

Additional observations from a re-analysis of the deposited data

Results flagged for a closer look

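For 3 gene lists the strain difference lay on opposite sides of 0 in wild-type and Il10-null colon, in both pairs of pools of equal sample number in each genotype. The difference between the genotypes was not tested for any of them. Cholesterol synthesis genes, which make sterols from acetyl-CoA, had a median log2 difference of -0.32 in wild type and 0.15 in the null pools. Respiratory chain and ATP synthase genes had medians of -0.081 and 0.036. Genes of Wnt, Hedgehog, Bmp and Notch signalling had medians of 0.035 and -0.13, but over the settings tried the wild-type median ranged from -0.066 to 0.075, so its sign was not stable. All 6 medians were small beside the called differences, and no tested member of these lists was called in wild type.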

How the results depend on the processing

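Counts of calls moved with the settings more than the differences did. In wild type the 30 calls became 53 (27 higher, 26 lower) with the pseudocount at the 50th percentile, 51 (26 and 25) with trended robust moderation and 49 (29 and 20) with a fit of the compared groups, and ranged from 2 to 39 when 1 pool was left out. In the Il10-null pools the 22 calls became 45 with either the larger pseudocount or trended robust moderation, 14 without the filter, 12 with the compared groups, 6 with the day block and 13 with probe sets averaged by gene, and ranged from 4 to 34 with 1 pool left out. The interaction gave 0 calls under every setting run. With sample number as a replicate block 31 wild-type probe sets were called. The block ended the calls of Ctsc and Gbp2b and no other of the 30. Averaging turned Pdxdc1 160163_at and 94312_at from negative to 0.33, by construction, and ended 6 further calls. Other scalings moved the median of all probe sets to between -0.01 and 0.03. Of 694 list medians recomputed, 77 moved beyond their spread and 27 changed sign. With 2 pools a strain and unknown background correction, values near the floor are the least certain.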

Other observations

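Some further probe sets separated the wild-type strains without passing the test. Apoc2, an apolipoprotein that activates lipoprotein lipase, read 115 and 165 in C57BL/6J and 499 and 517 in C3H/HeJBir (log2 difference 1.80, limma adjusted p = 0.0645). Sspn, a membrane protein of the dystrophin complex, read 90.8 and 61.2 against 12.9 and 14.0 (-1.81, adjusted p = 0.0645). Qsox1, which forms disulfide bonds in secreted proteins, read 202 and 166 against 41.1 and 49.6 (-1.79, adjusted p = 0.0637). The chemokine Cx3cl1 read 351 and 376 against 134 and 143 on 98008_at (-1.32, adjusted p = 0.0662). In the Il10-null pools the log2 differences of Apoc2, Sspn and Cx3cl1 were 1.72, -1.73 and -1.40. That of Qsox1 was -0.07 there (160 and 183 against 121 and 216), so its difference did not recur. These 4 genes were chosen after their values were seen.

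Called between the strains in the Il10-null pools and not in wild type were 2 probe sets. Ergic1, a protein that cycles between endoplasmic reticulum and Golgi, read 86.1 and 85.1 against 23.6 and 28.3 in wild type (log2 difference -1.39, limma adjusted p = 0.230) and differed by -2.16 in the null pools. The probe set 96215_f_at, which has no symbol, read 246 and 230 against 303 and 240 in wild type (0.18) and 1230 and 1009 against 235 and 271 in the null pools (-2.09), with an unadjusted interaction p of 0.000129 and an adjusted p of 0.480.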
